A study of Mus musculus with 43 samples.

Results

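*Lars2*, which encodes the mitochondrial leucyl-tRNA synthetase, was compared with 8 other mitochondrial aminoacyl-tRNA synthetase genes (*Aars2*, *Cars2*, *Ears2*, *Fars2*, *Iars2*, *Mars2*, *Nars2* and *Vars2*) in single neurons of the mouse brain. The 9 genes were chosen by name and make up 9 of the 35825 genes of the deposited tables. *Lars2* was singled out because it holds a large part of the counts of these cells, so that level is described below and supports no test. The cells were neurons of the lateral nucleus accumbens that project to the ventral tegmental area (NAcLat→VTA), labelled by retrograde fluorescent beads, recorded by patch clamp and collected as aspirated cytosol. They came from mice on standard chow (REG, 23 cells) or from mice with free access to both standard chow and a high-fat chow for several weeks (HFD, 20 cells). Young mice of both sexes were used, with C57BL/6J as the wild-type strain, and the labels name no genotype or transgene for either group. The labels also place 13 REG and 5 HFD cells in batch 1 and 10 REG and 15 HFD cells in batch 2, without saying what a batch was.

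Aminoacyl-tRNA synthetases attach each amino acid to its own tRNA. The mitochondrion translates its few genome-encoded respiratory chain subunits with its own set of tRNAs, and nearly all of the synthetases that charge them are nuclear genes whose symbols end in 2. The products are made in the cytosol and imported. Class I enzymes, which share a nucleotide-binding Rossmann fold, include those for leucine, isoleucine, valine, methionine, cysteine and glutamate. Class II enzymes, built on a different catalytic fold, include those for alanine, phenylalanine and asparagine.

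Each library was 1 cell and the labels do not tie cells to mice, although the study used fewer mice than cells, so a diet stands here for 1 sample. What follows gives the lowest, median and highest cell or a mean over cells, with no test between diets, and the intervals (95%, exact) cover counting error only. Total estimated counts ran from 176961 to 16919600 per cell (median 1426800), of which at least 118970 remained once *Lars2* and the next most abundant gene, the processed pseudogene *Gm19220*, were set aside. The cells held 6143 to 14279 genes with counts, and no 2 cells had identical counts. All 3 GABAergic markers were detected in 36 to 43 of the 43 cells and all 7 medium spiny neuron markers in 42 or 43. Levels above 15 CPM (counts scaled to a total of 1000000 per cell) were found in 94.4% of pairs of a cell and a medium spiny neuron marker, in 24.9% for the 7 microglial markers, 16.3% for oligodendrocyte, 10.5% for astrocyte, 6.20% for glutamatergic and 1.74% for endothelial markers. Across the 43 cells the summed microglial marker level went with the *Lars2* share of counts at a Spearman rho of 0.08. The rho was −0.31 for the medium spiny neuron, −0.30 for the GABAergic and 0.16 for the D2-type markers. Marker level and *Lars2* share have the same divisor, the total count of the cell, which contains the *Lars2* counts. The part of other cells' RNA in the *Lars2* level was not tested.

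*Lars2* lies on chromosome 9 at chr9:123366927-123462666 (GRCm38, plus strand), and no other annotated gene overlaps it. GENCODE M21 lists 9 transcripts for it, 3 of them coding and 5 with a retained intron. The main coding transcript, Lars2-201, is 3894 bases long in 21 exons, and Lars2-209, annotated as subject to nonsense-mediated decay, is 3756 bases long, also in 21 exons. They differ at both ends, by 27 bases at the start of the first exon and 2 bases at the end of the last, and where exon 11 meets exon 12 inside the reading frame. Exon 11 of Lars2-201 is chr9:123431886-123432001 and is followed by exon 12 at chr9:123436117-123436400, while in Lars2-209 exon 11 runs 4 bases further, to 123432005, and exon 12 starts 117 bases later, at 123436234. The junctions are shown because the counts turned out to be booked to Lars2-209. Capitals mark the bases that only that transcript has at the junction, which for Lars2-201 are the first 15 bases of its exon 12.

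Lars2-201: agtggatctgctgagTTTACAGGTATGACC
Lars2-209: tggatctgctgagGTTGcgctactggggca

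*Lars2* took a median of 26.1% of the estimated counts of a cell. In the REG cells it ranged from 2.33% (interval 2.32 to 2.34%) over a median of 26.2% to 48.5%, and in the HFD cells from 4.23% over 24.8% to 79.8% (79.7 to 79.9%). All but 2 of the HFD cells, at 49.2 and 79.8%, lay within the range of the REG cells, and 8 of the 20 lay above the REG median. The quartiles were 15.7 and 40.6% in HFD and 22.1 and 31.7% in REG. Within batch 1 they were 23.5 and 26.1% in HFD and 23.4 and 28.9% in REG, and within batch 2, which holds 15 of the HFD and 10 of the REG cells, 14.8 and 41.3% against 17.8 and 34.4%. In batch 1 the share stayed between 18.4 and 49.2%, and both the lowest and the highest cell belonged to batch 2, which ran from 2.33 to 79.8%.

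**Figure D1:**
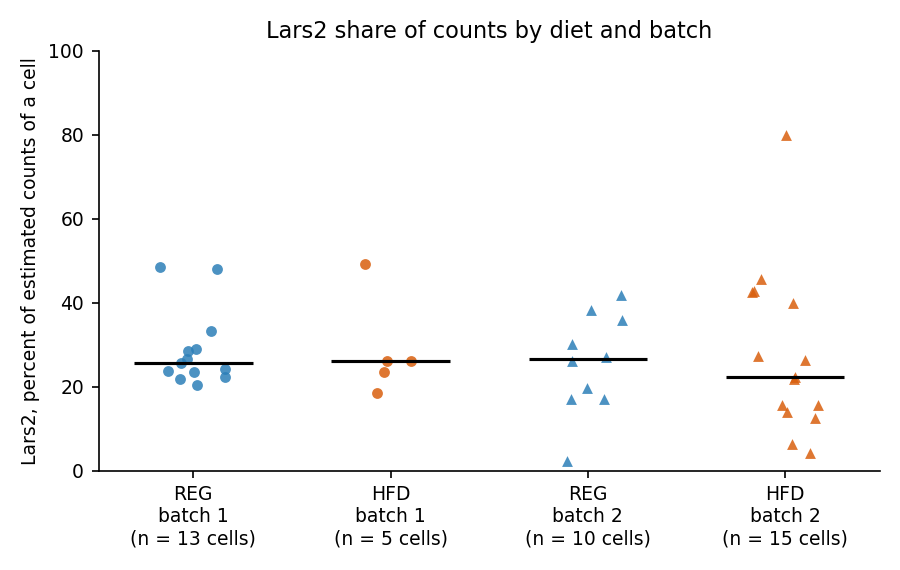
Percent of each cell's estimated counts that fell on *Lars2* (vertical axis, percent), by diet and labelled batch. Each point is 1 cell, blue for REG and orange for HFD, circles for batch 1 and triangles for batch 2, and the bar is the median. The cells of the 4 groups overlap, with 1 HFD cell of batch 2 at 79.8% and 3 cells of batch 2 below 10%.

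The 3 cells with the smallest share were also the 3 most deeply sequenced. REG cell 14 held 16919600 counts with *Lars2* at 2.33%, HFD cell 20 held 8242050 with 6.41%, and HFD cell 19 held 5468190 with 4.23%. Over all 43 cells, these 3 included, the Spearman rho between share and total count was −0.08 (0.11 in batch 1 and −0.22 in batch 2), a description in which the total itself contains the *Lars2* counts. Against the total without *Lars2* and *Gm19220* it was −0.25 (0.0031 in batch 1 and −0.39 in batch 2). Against the number of genes with counts it was 0.04. HFD cell 8, with the highest share, had 835031 counts, of which 666523 were on *Lars2*.

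**Figure D2:**
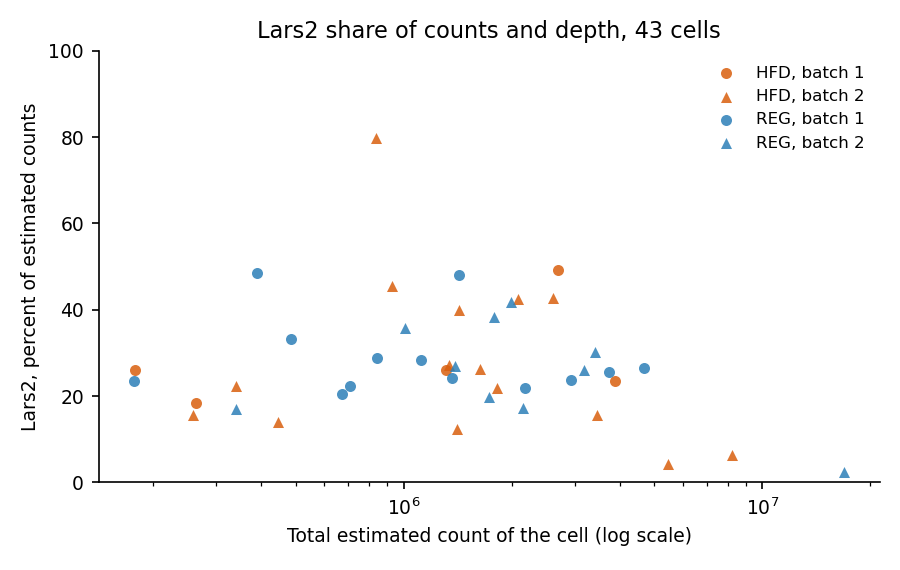
*Lars2* share of counts (vertical axis, percent) against the total estimated count of the cell (horizontal axis, log scale) for the 43 cells, coloured by diet and marked by batch. The 3 deepest cells lie at 2.33, 4.23 and 6.41%, and the cell at 79.8% has 835031 counts.

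On the TPM scale, which divides each count by the length of the transcripts it was assigned to, *Lars2* stayed first among the members in 43 of 43 cells. Its TPM ran from 10058 over a median of 106104 to 239948 in REG cells and from 15669 over 99325 to 496868 in HFD cells, so it held a median of 10.1% of all TPM. Among all genes it was the highest by TPM in 31 cells. *Gm19220*, at chr12:40893485-40894287, was the highest in 11, and *mt-Co3*, a mitochondrially encoded cytochrome oxidase subunit, in 1 (HFD cell 19). The 8 other members together summed to between 12.9 and 601 TPM per cell, with a median of 105. *Lars2* exceeded this sum by 38.5-fold in the cell with the smallest gap, REG cell 14, by 706-fold in the median cell and by 28404-fold in HFD cell 8. As a log2 value the median gap was 9.46, and it was 9.40 in REG cells and 9.53 in HFD cells. Against the single highest of the other members in the same cell, *Lars2* TPM was at least 71.5-fold higher in each of the 43 cells. This gap is by construction no smaller than that over the sum.

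**Figure D3:**
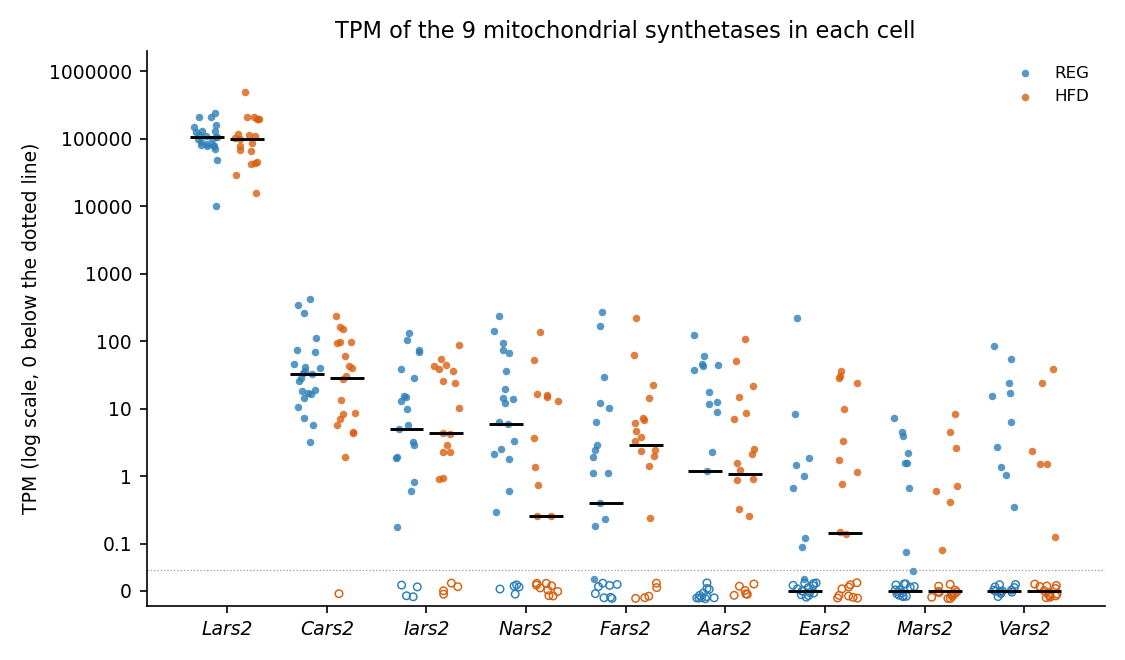
TPM of the 9 synthetase genes (vertical axis, log scale, with cells at 0 drawn as open circles below the dotted line) in REG cells (blue) and HFD cells (orange). Each point is 1 cell and the bar is the median. *Lars2* lies between 10058 and 496868 TPM, while no other member passes 418 TPM and each of the other 8 is at 0 in at least 1 cell.

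Of the other 8 genes *Cars2* was found in 42 of 43 cells, with at least 10 counts in 34, while *Ears2*, *Mars2* and *Vars2* were at 0 in more cells than not. Their order was not the same from cell to cell. A cell held counts for 2 to 8 of them, with a median of 5, and the 8 together had 13 to 6170 counts per cell with a median of 201. *Cars2* was the highest of the 8 by TPM in 21 cells, *Aars2* and *Fars2* in 5 each, *Iars2* and *Nars2* in 4 each, *Ears2* and *Vars2* in 2 each and *Mars2* in none. By median TPM over the 43 cells the order was *Cars2* (30.4), *Iars2* (4.33), *Nars2* (2.15), *Fars2* (1.95) and *Aars2* (1.19), with *Ears2*, *Mars2* and *Vars2* at 0. The ranges of neighbours in this order overlapped over most of their length. To set cells on equal depth, *Lars2* and *Gm19220* were taken out and every cell was thinned to 110000 of its remaining counts. A cell then held 1 to 6 of the 8 genes with a median of 3, in REG and in HFD cells alike.

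The deposited counts and TPM also show which transcript each gene's counts were assigned to, since their ratio within a cell is proportional to the transcript length less the mean fragment length. This scale was set in each cell on 100 to 817 genes with a single annotated transcript, of which a median of 97.1% (lowest cell 94.2%) came back within 0.5 base of their annotated length. For *Lars2* the length read back ran from 3753.72 to 3756.65 bases with a median of 3755.99. It was within 1 base of Lars2-209 in 42 of 43 cells and in no cell near the 3894 bases of the coding Lars2-201. If the counts lay on these transcripts only, the share on Lars2-201 was at most 0.49%, reached in 1 cell. The exception, HFD cell 16, read back 3753.72 bases, slightly shorter than Lars2-209. The transcripts are nearly the same in sequence: 3691 of the 3726 distinct words of 31 bases in Lars2-209 also occur in Lars2-201, which has 173 words that Lars2-209 lacks, and only 35 words set Lars2-209 apart. Which *Lars2* RNA the cells held was not tested by this measure, which reports the assignment made by the authors' program.

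**Figure D4:**
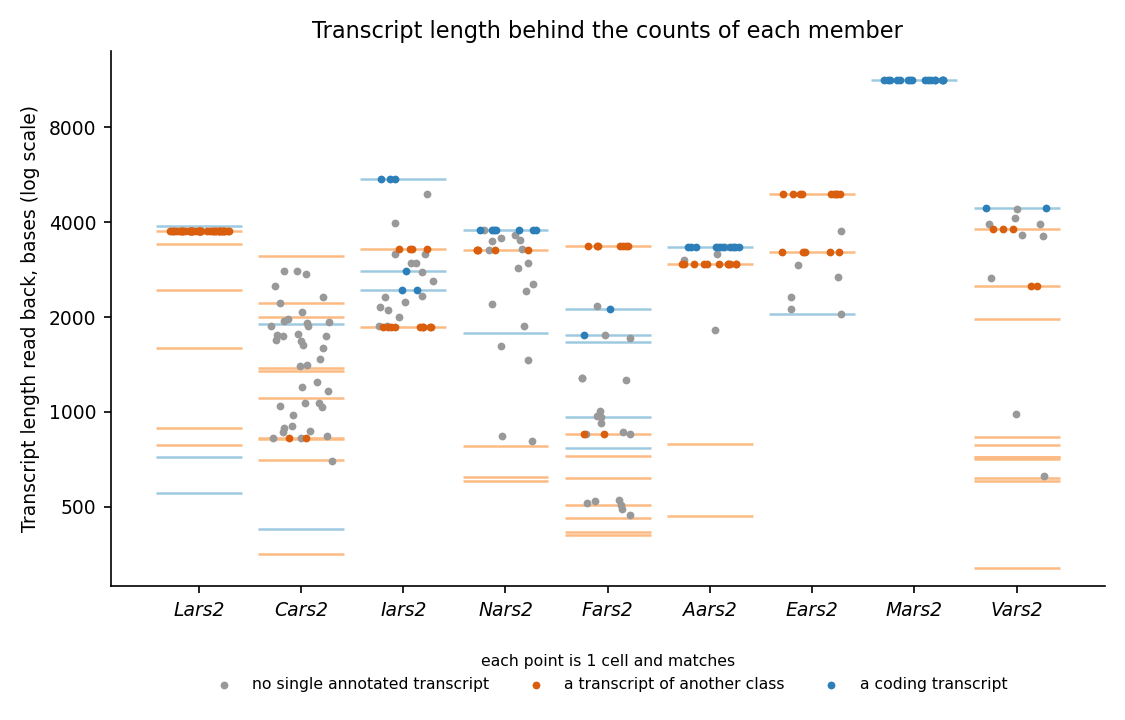
Transcript length read back from count and TPM (vertical axis, bases, log scale) for each of the 9 genes. Each point is 1 cell with counts for the gene, blue where the length lies within 1 base of a coding transcript, orange where it matches a transcript of another class and grey where it matches none, and the horizontal lines are the annotated transcripts (light blue coding, light orange other classes). *Lars2* cells form 1 band at 3756 bases, just under the coding transcript of 3894 bases, while the cells of *Cars2* scatter between 697 and 2809 bases.

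The other members did not share such a single assignment, except *Mars2*, whose only annotated transcript of 11294 bases was read back in 16 of its 16 cells. No least count was asked of a cell for these matches. *Lars2* had 40265 counts or more in each cell, while a match of another member can rest on 1 count. *Aars2* came back at its coding transcript of 3349 bases in 10 of 26 cells and at a retained-intron transcript of 2956 bases in 11. Its cells with many counts differed too, with 3349 bases in REG cell 13 (299 counts) and 2956 in REG cell 5 (174 counts). *Ears2* was at a coding length in none of its 20 cells, and at retained-intron transcripts of 4900 or 3222 bases in 9 and 5 cells. The counts behind these matches ran from 1, as in REG cell 3, to 320 in HFD cell 16. HFD cell 19, with 269 counts, read back 2051.49 bases, slightly longer than the coding *Ears2* transcript of 2046 bases. *Iars2* stood at a coding transcript in 6 and at a transcript of another class in 13 of 35 cells. *Nars2* was at its coding transcript of 3778 bases in 7 and at a retained-intron transcript in 5 of 29 cells, *Fars2* at coding ones in 2 and others in 9 of 30 and *Vars2* at coding ones in 2 and others in 5 of 16. In 40 of its 42 cells *Cars2* came within 1 base of none of its 12 transcripts. The scale was set on transcripts of at least 1500 bases and was less exact on short ones: *Gm19220*, with a single transcript of 803 bases, matched it in 7 of 43 cells and read back 803.18 to 826.89 bases. A short length that matched no transcript therefore does not show counts divided among several. For the members other than *Lars2* and *Mars2*, a TPM value thus rests on a length that changed from cell to cell.

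Sequence shared with other genes was counted in words of 31 bases, on both strands. Of the 11160 words of the *Lars2* transcripts, 0 occur in any of the other 8 members, in the cytosolic leucyl-tRNA synthetase gene or in *Gm19220*, 103 occur in some other annotated gene and 38 in some gene of the tables. The genes that shared most were *Gm47414* (38 words), *Gm36618* (35) and *AA474408* (26), none of them in the tables. A run of 22 words was shared with *Gm15564*, an antisense gene at chr16:35966752-35983230 that is also outside the tables. This run spans 52 bases of the last exon of Lars2-201 in the 3′ UTR, at chr9:123462048-123462099, and ends 565 bases before the transcript's end. Its first 30 bases, at chr9:123462048-123462077, are shown because they are also known from a ribosomal RNA:

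shared stretch: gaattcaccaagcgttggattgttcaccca

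As background, that RNA is the large-subunit RNA of the cytosolic ribosome, for which no sequence was compared here. The *Lars2* transcripts shared 0 words with each of the non-coding genes *Gm42418*, *Gm26917* and *AY036118*. They also shared 0 words with each of the mitochondrial rRNA genes *mt-Rnr1* and *mt-Rnr2*. The tables hold 0 of 354 annotated rRNA genes, 0 of 2 mitochondrial rRNA genes and 7 of 5854 lincRNA genes, against 99.8% of the protein-coding genes. The stretch makes up 1.38% of the length of Lars2-209. Where along *Lars2* its reads fell cannot be read from values per gene, and their part from other RNAs was not tested. Of the genes on either side of *Lars2*, 5 of 6 were in the tables, with median TPM of 0 to 102. *Tmem158*, the nearest annotated protein-coding gene before *Lars2*, was the highest at 102.

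Averaged over cells, *Lars2* reached 274190 CPM in REG and 279950 CPM in HFD, which is a log2 ratio (HFD over REG) of 0.03. The ratio was −0.01 within batch 1 and 0.12 within batch 2, and it ranged from −0.12 (without HFD cell 8) to 0.09 (without HFD cell 19) when each cell was left out in turn. Its size depended on the scaling. Scaled to the total without *Lars2* and *Gm19220* the ratio was 0.63, and with TMM factors 0.74. Without HFD cell 8, in which *Lars2* outweighs the other genes most, they were −0.09 and 0.02. TMM moved the median ratio of all genes by 0.14, from −0.13 to 0.01.

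For the other members the same ratio was read against all genes. A filter of more than 15 CPM in at least 5 cells and a mean above 4 CPM was passed by 10802 genes and by 8 of the 9 members, *Fars2* being the exception with 4 such cells. Of these 10802 genes, 9.04% had a log2 ratio of at least 1 and 14.3% of at most −1, with a median of −0.13 (977 and 1541 genes, 1416 and 1326 with TMM factors, or 2332 and 1376 with DESeq2 size factors, which moved the median by 0.27). Of the 8 members 0 were past the limit upward and 1, *Vars2*, downward, a share near that background. With DESeq2 size factors *Aars2* (1.31) and *Ears2* (1.60) were past it upward and *Nars2* (−1.14) and *Vars2* (−2.77) downward, and *Iars2* was at 0.05. These are to be read against the 2332 and 1376 of 10802 genes past it on that scale. HFD cell 19 weighs heavily in both upward values, with 1402 *Aars2* and 269 *Ears2* counts at a size factor of 1.13. The values on that scale were not recomputed without this cell. On total counts *Aars2*, *Iars2*, *Nars2* and *Vars2* kept the sign of their ratio whichever single cell was left out. *Lars2*, *Cars2*, *Ears2*, *Fars2* and *Mars2* did not.

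**Figure D5:**
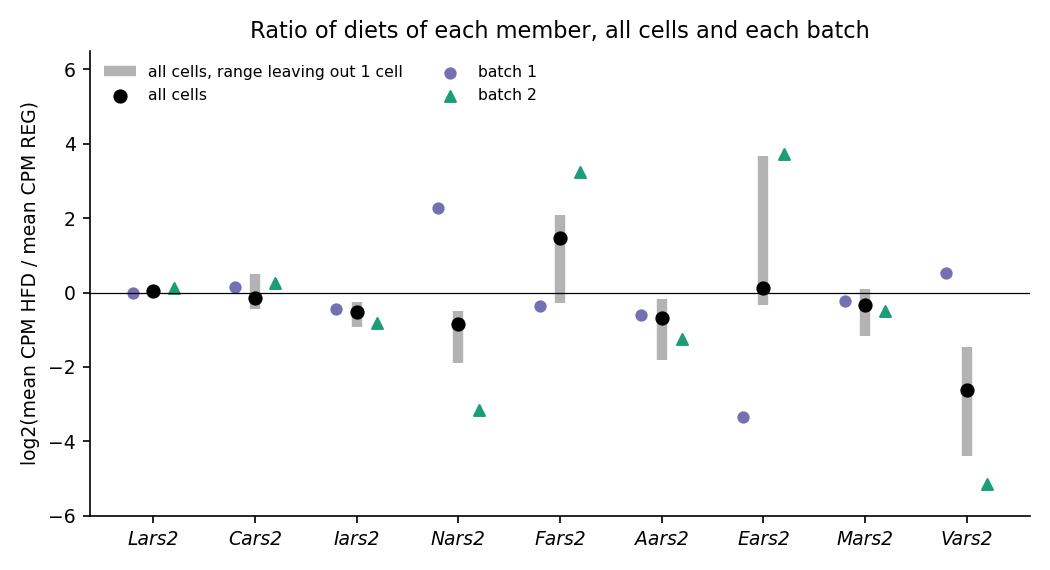
Log2 ratio of mean CPM in HFD cells over REG cells for the 9 genes (vertical axis), for all cells (black), batch 1 (purple) and batch 2 (green). Grey bars give the range when each cell was left out in turn. *Lars2* stays within −0.12 and 0.12, while *Ears2*, *Fars2*, *Nars2* and *Vars2* lie far apart in the 2 batches, with opposite signs.

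Among the class I genes, *Vars2*, for valine (chr17:35655634-35667592), had counts in 10 REG and 6 HFD cells, with a median TPM of 0 in both diets and highest values of 83.7 and 38.4. It averaged 26.4 CPM in REG and 4.32 CPM in HFD, giving a log2 ratio of −2.61. Single cells carried these means: with 118 counts, REG cell 15 made up 57.1% of the CPM summed over REG, and with 82 counts HFD cell 3 made up 72.6% of that over HFD. Without REG cell 15 the ratio was −1.45 and without HFD cell 3 it was −4.40. Within batch 1 it was 0.52 and within batch 2 it was −5.15.

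*Iars2*, for isoleucine (chr1:185284726-185329396), was found in 19 REG and 16 HFD cells, with medians of 4.94 and 4.30 TPM and highest values of 131 and 86.2 TPM. The log2 ratio of mean CPM was −0.52, with −0.45 and −0.81 in the batches and −0.92 to −0.24 with each cell left out. Summed counts over summed totals gave 0.48 instead, a sum in which deep cells weigh more. *Iars2* shares 2004 of its words (22.4%) with the neighbouring *Rab3gap2*, so the division of reads between these genes makes its counts uncertain. The same limit holds to a lesser degree for *Fars2*, which shares 473 words (8.13%) with *Nrn1*. It also holds for *Cars2*, which shares 368 (4.94%) with *Naxd*. *Vars2* shares 411 words (7.28%) with *Gm20483*, an antisense gene without values here.

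*Cars2*, for cysteine (chr8:11513977-11550783), was the most widely detected of the 8, in 23 of 23 REG and 19 of 20 HFD cells. It ran from 3.17 over 32.9 to 418 TPM in REG cells and from 0 over 28.7 to 235 TPM in HFD cells. The log2 ratio was −0.14 over all cells but 0.14 in batch 1 and 0.25 in batch 2. Batch 1, in which *Cars2* had means of 66.0 CPM (REG) and 72.5 CPM (HFD) against 31.5 and 37.6 CPM in batch 2, holds 13 of the 23 REG cells but 5 of the 20 HFD cells. Without REG cell 12, at 452 CPM, the pooled ratio was 0.50.

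*Ears2*, for glutamate (chr7:122037213-122067263), also charges the mitochondrial glutamine tRNA, which a separate amidotransferase then corrects. It was detected in 9 REG and 11 HFD cells, with medians of 0 and 0.14 TPM. With 51 counts (288 CPM), REG cell 1 made up 91.9% of the CPM summed over REG, and the log2 ratio of 0.12 became 3.68 without it. The batches gave −3.34 and 3.73. *Mars2*, for methionine (chr1:55237177-55248470), was found in 9 REG and 7 HFD cells and never passed 8.44 TPM. Its log2 ratio was −0.34 (−0.24 and −0.50 in the batches), and −1.17 without HFD cell 20 or 0.10 without REG cell 19.

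Among the class II genes, *Aars2*, for alanine (chr17:45506841-45520843), was detected in 12 REG and 14 HFD cells, with medians of 1.19 and 1.07 TPM and highest values of 122 and 108 TPM. The log2 ratio was −0.68, with −0.59 and −1.25 in the batches. REG cell 16 (273 CPM) and HFD cell 19 (256 CPM) stood above all others, and the ratio was −0.17 without the first and −1.83 without the second. *Nars2*, for asparagine (chr7:96951505-97064758), was detected in 18 REG and 11 HFD cells, with medians of 5.84 and 0.26 TPM. After thinning the counts outside *Lars2* and *Gm19220* to equal depth it was found in 16 of 23 REG (69.6%) and 7 of 20 HFD cells (35.0%). In batch 1 these were 7 of 13 REG and 3 of 5 HFD cells (53.8 and 60.0%), and in batch 2 9 of 10 and 4 of 15 (90.0 and 26.7%), so the lower HFD share was found in batch 2 and not in batch 1. Its log2 ratio of −0.84 joined 2.28 in batch 1 with −3.15 in batch 2, where REG means were 68.4 CPM and HFD means 7.72 CPM.

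*Fars2*, for phenylalanine (chr13:36117412-36726280), was detected in 15 REG and 15 HFD cells, with medians of 0.40 and 2.88 TPM. Averages of 5.01 CPM in REG and 13.8 CPM in HFD gave a log2 ratio of 1.46. HFD cell 10, with 360 counts, made up 71.7% of the CPM summed over HFD, and without it the ratio was −0.29. On the TPM scale the ratio was −0.30. The 2 REG cells with the highest *Fars2* TPM, 273 and 169, had only 31 and 23 counts, so their TPM rests on short transcripts.

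The rest of the mitochondrial translation machinery gave a frame for these values. All 17 mitochondria-only synthetases were in the tables, and the 16 other than *Lars2* had median TPM from 0 to 30.4, the highest being *Cars2*. Of the 15 that passed the filter, 1 was past the limit upward, *Yars2*, for tyrosine, with 1.54 (2.54 and 1.61 in the batches). Downward were *Vars2*, *Rars2*, for arginine, with −2.68 (−2.62 and −2.77), and *Tars2*, for threonine, with −1.40 (−0.34 and −2.14). The median log2 ratio of the 14 without *Lars2* was −0.60, against −0.13 over all genes tested. Of all 10802 genes, 9.04% were past the limit upward and 14.3% downward. The counts of each list are to be read against these shares, and no difference from them was tested. The glycyl and lysyl synthetases, which serve both compartments, were at −1.75 (*Gars*, −0.96 and −2.40 in the batches) and −0.92 (*Kars*, −1.76 and −1.08). The 19 cytosolic synthetases had higher levels, with a median over genes of 14.9 TPM against 1.43 TPM for the 16. Of these 19, 0 were past the limit upward and 3 downward. They were *Iars* (−1.42, with −0.89 and −0.58 in the batches), *Qars* (−1.02, with −0.75 and −0.89) and *Sars* (−1.07, with −0.31 and −1.57). *Iars* and *Qars* thus passed the limit in neither batch.

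Of the 4 genes for the glutaminyl-tRNA correction and formylation steps, 2 passed the filter and 0 were past the limit. Among 9 measured mitochondrial translation factors 7 passed, with the elongation factor gene *Tufm* at 1.06 (1.02 and 1.21 in the batches, with a median of 54.2 TPM) and its exchange factor *Tsfm* at −1.42 (−0.76 and −1.69). All 78 mitochondrial ribosomal protein genes passed, led in level by *Mrps33* (median 251 TPM). Of the 78, 6 were past the limit upward and 15 downward, against 9.04 and 14.3% of all genes tested. Their median log2 ratio was −0.27, against −0.13 for all genes. Of the 13 mitochondrially encoded genes, whose products these enzymes help to make, 0 were past the limit upward and 1, *mt-Nd4l*, downward (−1.10), and the highest was *mt-Co3* with a median of 5656 TPM. *Lars2* at a median of 101140 TPM thus stood above the median of each of these genes. Of a further list of 12 genes, ribosomal RNA loci and other non-coding genes with *Gm19220* among them, only *Gm19220* was in the tables, with a log2 ratio of 0.40 (−0.55 in batch 1 and 0.32 in batch 2). Of the genes next to *Lars2* on the chromosome 4 passed the filter, 2 past the limit upward and 0 downward, both with a negative ratio in batch 1.

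The genes whose levels followed *Lars2* most closely over the 43 cells were not synthetases. On counts scaled to the total without *Lars2* and *Gm19220*, Spearman rho was highest for *Arnt2* (0.55), *Rpl7* (0.51), *Bdnf* (0.51), *Spry3* (0.50) and *Ubxn7* (0.50). It was lowest for *1600012H06Rik* (−0.47), *Zfp810* (−0.46), *Igsf9b* (−0.45), *Dstyk* (−0.43) and *Grin2b* (−0.43). These are the extremes of 10801 genes, of which the middle 90% ran from −0.21 to 0.29, and the cells of a diet share mice. Within a cell, *Lars2* and every other gene have the same total as divisor. The other members lay between −0.34 (*Ears2*) and 0.33 (*Cars2*), and *Gm19220* at 0.38. The summed CPM of the 8 other members went with the *Lars2* share at −0.32 (0.07 in batch 1 and −0.52 in batch 2), 2 quantities that share the total count of the cell as divisor.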

How the data were processed

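Single-cell cDNA was made from poly-A RNA with SMART-Seq kits, libraries with Nextera XT, and sequencing was paired-end. Which of the kits made which library is not given in the sources used here. The authors pseudo-aligned reads to the Ensembl GRCm38 transcriptome with kallisto, removed shallow cells and deposited estimated counts per gene, summed over transcripts. They also deposited TPM, which divide those counts by effective transcript length and scale each cell to 1000000. No column of another sample was present (0 columns).

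From these tables, CPM, shares, ratios of mean CPM and Spearman correlations were computed with scipy 1.17.1, pandas 2.3.3 and numpy 2.4.6 under Python 3.11.15. TMM factors (edgeR 4.0.16) and DESeq2 1.42.0 size factors, in R 4.3.3, served only as alternative scalings. Of these, only the DESeq2 size factors were taken from rounded counts. No differential test was run, as no cell could be tied to a mouse. Transcript lengths were read back from count over TPM per cell, calibrated on single-transcript genes of at least 1500 bases and 10 counts (GENCODE M21), and ratios and lengths were tested on simulated data. Depth per cell is given with the results, and counting intervals take amplified reads as independent.

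The members and the gene lists were chosen with earlier results of these data known. Genes were named if they were members, the top gene of a cell, among the 3 highest of a list or past a log2 ratio of 1 with the same sign in both batches, or among the 5 highest or lowest correlations with *Lars2*. Ribosomal protein genes past that limit are given as counts only. *Rab3gap2*, *Gm15564*, the other genes sharing words with a member and the junction sequences were described after their values were seen.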

Additional observations from a re-analysis of the deposited data

How the results depend on the processing

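No paired analysis was possible because no cell of one diet is tied to a cell or mouse of the other. The median *Lars2* share of 26.1% was 27.7% as a mean over cells, 21.1% from summed counts, 26.2% in REG cells, 24.8% in HFD cells, 25.9% in batch 1, 26.2% in batch 2, 10.1% of TPM and 26.0% after thinning to 150000 counts, and 25.9 to 26.1% with each cell left out in turn. Leaving out the 3 cells of lowest share, chosen after seeing the data, gave 26.1%. The *Lars2* log2 ratio of 0.03 was 0.15 on TPM, 0.63 on totals without *Lars2* and *Gm19220*, 0.74 with TMM factors, 0.70 with DESeq2 size factors, −0.078 from medians, 0.18 from summed counts, −0.10 as a difference of mean log2(CPM + 1), −0.0099 and 0.12 within batches 1 and 2, 0.028 after thinning, and −0.12 (without HFD cell 8) to 0.093 (without HFD cell 19) with each cell left out. The gap of *Lars2* over the other 8 members, 9.46 on the log2 TPM scale, was 10.94 on CPM and 9.78 as a mean over cells. Genes past the limit upward numbered 5051 without a filter, 523 with at least 10 cells and 1981 in batch 1, against 977, and downward 7283, 963 and 2578, against 1541. The ratio of *Vars2*, −2.61, was 0.52 within batch 1, where 5 REG and 2 HFD cells held counts, and −3.25 without REG cell 15 and HFD cell 3 together, an alternative chosen after seeing the data. *Aars2* was at 1.31 with DESeq2 size factors, a value in which HFD cell 19 weighs heavily. Of the 5 genes most like *Lars2*, 1 remained on TPM, 0 in batch 1 and 1 in batch 2, and of the 5 least like it 3, 0 and 1. With a tolerance of 5 bases, also chosen later, 43 of 43 cells matched the *Lars2* transcript under nonsense-mediated decay. Causes of these shifts were not tested. Depth limits the 8 other members: with at least 10 counts asked for, they were found in 7 (*Mars2*) to 34 (*Cars2*) of the 43 cells, so a cell at 0 was not shown to lack the transcript.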
